A study of Homo sapiens with 18 samples.

Results

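5S ribosomal RNA genes and their pseudogenes were described in small RNA libraries of HEK293T, a human embryonic kidney cell line. The members were the rRNA features of at most 500 nt whose name marked them as 5S, which gave 324 of the 175935 features in the count table. Of these, 18 lay in the gene cluster on chromosome 1, defined as a run of at least 5 members with no gap over 10000 nt, and 306 lay elsewhere on 24 chromosomes. Cells had received a scramble siRNA (control) or an siRNA against SSB (siSSB), the gene of the La protein, with RNAiMAX for 48 h. RNA came from whole cells (total), the nuclear fraction (nuc) or the cytoplasmic fraction (cyto), with 3 libraries in each of the 6 groups, all marked as treated with PNK. The study describes its replicates as biological and handled on a single day, without saying whether they were separate cultures, and p-values measure the spread between these libraries.

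5S rRNA is part of the large ribosomal subunit and is made by RNA polymerase III. Its promoter lies inside the gene, in an internal control region with an A box, an intermediate element and a C box, which is bound by TFIIIA. Transcription ends in a run of T, and La is known to bind the U run left at the 3′ end of new polymerase III transcripts. Mammalian genomes also hold many 5S-derived copies scattered outside the gene cluster, most of them annotated as pseudogenes.

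The 17 cluster genes RNA5S1 to RNA5S17 stood on the minus strand, 2215 to 2242 nt apart, and the remaining cluster member was the pseudogene RNA5SP18. All positions are hg38 and include flanks, which were 25 nt on both sides for 179 of the 270 members that overlapped an annotated rRNA gene or pseudogene on the same strand in GENCODE. Exactly 16 of the 17 genes had one identical sequence of 119 nt, and RNA5S9 differed from it by T84C, a base inside the C box (positions are counted from 1 at the 5′ end of the gene). The gene with the highest count was RNA5S7 at chr1:228623642-228623810, and RNA5S9 stood at chr1:228628123-228628291. The bases that follow RNA5S7 are shown because transcription ends there, with the first T run in capitals.
RNA5S7, next 25 nt: TTTTctttggctttttgctgtttct

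Copies elsewhere shared parts of the gene sequence. Among the copies with most counts were the FAM234B copy at chr12:13046127-13046288, RNA5SP370 at chr12:104125211-104125381 and RNA5SP145 at chr3:151188074-151188248, all on the plus strand, and RNA5SP141 at chr3:134783411-134783580 on the minus strand. Their longest exact stretch of the cluster sequence covered bases 1 to 90, 1 to 90, 1 to 86 and 1 to 62. An inner stretch and a stretch at the 3′ end are shown here in capitals, with up to 25 nt on each side, because copies of these kinds differed between the fractions. RNA5SP357 was picked for display after its values were seen.
Copy in EDA, chrX:69672454-69672622, plus strand: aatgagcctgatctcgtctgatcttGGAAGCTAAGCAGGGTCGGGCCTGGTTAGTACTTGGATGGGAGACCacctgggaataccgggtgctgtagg
RNA5SP357, chr12:34205674-34205842, plus strand: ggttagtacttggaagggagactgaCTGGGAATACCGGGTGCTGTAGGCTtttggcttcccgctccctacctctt

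The control region was rarely intact outside the cluster. The exact A box of the cluster genes, bases 50 to 64 (AGCTAAGCAGGGTCG), was found on the member strand in 50 of the 306 copies elsewhere and in 17 of the 18 cluster members. The short intermediate element, bases 67 to 72 (CCTGGT), was found in 200 and 17, and the exact C box, bases 80 to 97 (TGGATGGGAGACCGCCTG), in 3 and 16. The whole run of bases 50 to 97 was intact in 0 copies elsewhere and in 16 cluster members. In the last 169 bases of 35116 RefSeq promoters (GRCh38.p14), searched on both strands, the A box and the C box segments were found in 0 and the intermediate element in 10.3%. A run of at least 4 T within the 25 nt after the gene body was present in 17 of 18 cluster members, and within the 25 nt before it in 0. Elsewhere the same run stood after the body in 59 copies (19.3%) and before it in 53 (17.3%). These matches describe letters only and say nothing about binding or transcription of a copy.

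A further feature of the sequences was a direct repeat around many copies elsewhere. In the FAM234B copy the 17 bases agaaaatgttcacttgc preceded the gene body and occurred again from base 88, in RNA5SP370 the 16 bases agaagttacagcttca did so from base 88, and in RNA5SP145 the 17 bases agaaattatattcacct from base 87. A repeat of at least 12 nt, with its first copy within the 25 nt before the body and its second copy at base 61 or later, was found in 62 of 306 copies elsewhere (20.3%) and in 0 of 18 cluster members, where the longest match was 6 nt. The same search in RefSeq promoters, with equal spacing and a window of 141 nt, found such a repeat in 0.826%. The first repeat directly touched the 5S body in 38 of the 62 copies, and the second repeat began between bases 84 and 94 in 50 of them. In the FAM234B copy and RNA5SP370 the stretch shared with the cluster ran to base 90, so that bases 88 to 90 belonged to both the stretch and the second repeat. Such a repeat stood around 11 of the 17 copies that share at least 50 nt with the cluster genes, 35 of the 155 that share 20 to 49 nt and 16 of the 134 that share less. The 62 copies had a median of 137.5 counts over all libraries, against 12.5 for the other copies elsewhere, and 7 of them had none. Direct repeats of this length are known to be left at the insertion sites of LINE-1 retrotransposition. How these copies arose was not tested.

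**Figure D1:**
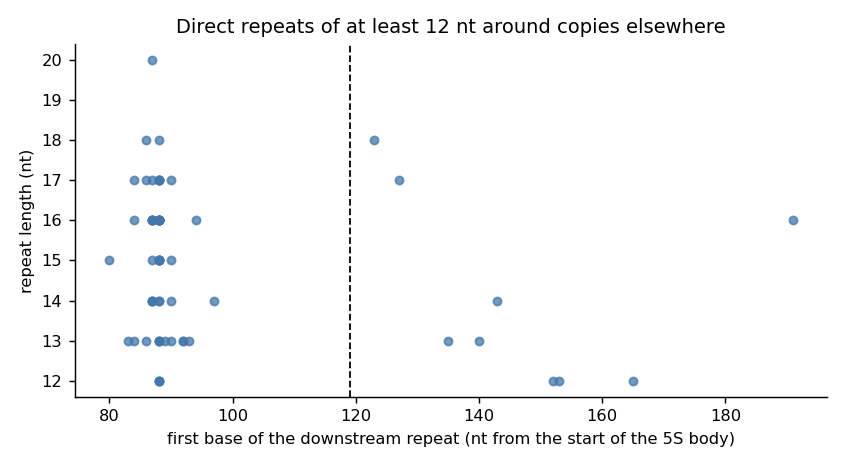
Direct repeats of at least 12 nt around 5S copies outside the chr1 cluster. Each point is a copy, the x axis gives the base, counted from the start of the 5S body, at which the downstream repeat began, the y axis the repeat length in nt, and the dashed line the 119 nt length of the cluster genes; 50 of the 62 copies lie between bases 84 and 94.

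The counts covered small RNAs well in each library. Features of at most 500 nt, with rows of identical counts taken once, held 2471886 to 7971280 counts per library, and 5S members held 164578 to 707122. Fractions differed in the direction of their labels, since snoRNAs, which reside in the nucleus, made up 76.0 to 82.5% of these counts in nuc libraries and 7.93 to 11.8% in cyto libraries, and the cytoplasmic Y RNAs made up 0.053 to 0.134% and 5.68 to 7.38%. Of 10 miRNA genes that mark liver, blood, neurons or muscle, 9 had a row, and their sum was 0 to 29 counts per library, against 2031 to 20616 for the 6 miRNAs of the MIR17HG cluster. SSB had no row of its own, and the lncRNA row over its exons held 547 to 1267 counts in siSSB total and 983 to 3304 in siSSB cyto libraries, but at most 32 in control cyto libraries, so these counts are no measure of the SSB mRNA. Whether counting used strand is not given in the sources used here, reads without molecular identifiers are not independent molecules, and in bulk RNA fewer cells and less RNA per cell cannot be told apart.

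Within the cluster, the 16 identical genes held almost the same counts. Summed over the 18 libraries they ranged from 443269 to 446817, and within single libraries their coefficient of variation was 0.479 to 1.01%. The variance over the 16 copies was 0.543 to 2.08 times their mean, where independent random placement of reads would give a ratio near 1. Counts of these 16 genes are therefore not separate measurements, and they are called the identical copies from here on. RNA5SP18, 77.3% identical to RNA5S7, had 0 counts in each of the 18 libraries, which allows up to 3 counts per library.

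RNA5S9, with its single different base, held 141237 counts, or 31.8% of the mean of the identical copies. A read that does not cover base 84 matches RNA5S9 and the identical copies alike. The share is therefore not a measure of RNA5S9 transcripts alone, and which part of 5S the reads cover was not tested. In control cyto libraries it reached 37.4%, 36.7% and 34.9% of that mean, and in control nuc libraries 23.7%, 29.5% and 27.96%. The control cyto values all lay above the control nuc values. In siSSB cyto libraries the share was 34.3%, 36.2% and 33.9%, and in siSSB nuc libraries 22.4%, 34.3% and 32.5%, so that these groups overlapped. Whole-cell libraries held 28.1 to 32.5% in control and 29.4 to 34.7% in siSSB, and both ranges overlapped those of the nuc libraries.

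The 306 copies elsewhere held 632529 counts, 8.02% of all 5S counts, and 42 of them held none. Another 170 reached at least 10 counts and 43 at least 1000. The 5 highest held 47.8% of the counts elsewhere. Per nt of feature, the FAM234B copy reached 16.8% of the level of the identical copies, RNA5SP370 15.7%, RNA5SP145 15.2%, RNA5SP149 12.4%, RNA5SP141 8.07% and RNA5SP429 4.89%. All but RNA5SP149 among these 6 had a direct repeat of at least 12 nt. Most copies elsewhere lay within genes, 190 in an intron, as did the FAM234B, NFYB (RNA5SP370), MED12L (RNA5SP145) and CDH1 (RNA5SP429) copies, while 108 overlapped no other annotated gene.

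Counts elsewhere followed the length of the exact stretch shared with the identical copies. The 42 copies with a stretch under 15 nt had a median of 1 count over all 18 libraries, and 27 of them had a count at all. The median was 3 for the 92 copies with 15 to 19 nt, 22 for the 74 with 20 to 24 nt and 119 for the 52 with 25 to 29 nt. It was 362 at 30 to 39 nt (18 copies), 1008 at 40 to 49 nt (11 copies) and 13347.5 at 50 to 69 nt (10 copies). The 7 copies with 70 to 90 nt had a median of 53883, from 20726 to 71598, and the 17 copies with at least 50 nt held 75.5% of all counts elsewhere. Identity over the whole gene did not order the counts by itself. The EDA copy, the closest copy elsewhere at 95.8% identity but with a stretch of 46 nt, held 19801 counts. The GREB1 copy, at 91.6% and 27 nt, held 598. Both lay above the medians for their stretch lengths, 1008 and 119, and the EDA copy was the highest at 40 to 49 nt. Whether identity adds to stretch length was not tested. Whether a read within a shared stretch came from the copy or from the cluster cannot be told from these counts.

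**Figure D2:**
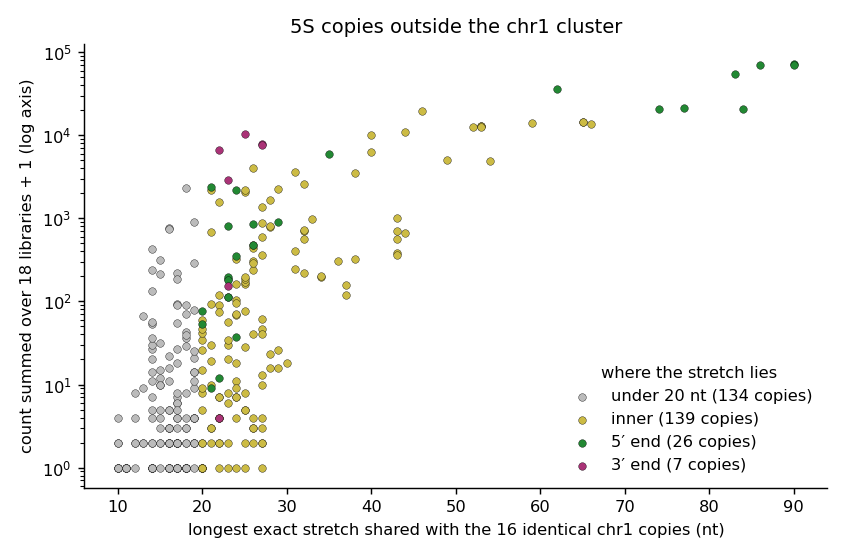
Counts of the 306 copies outside the chr1 cluster against shared sequence. Each point is a copy, the x axis gives the longest exact stretch shared with the 16 identical chr1 genes in nt, and the y axis (log) the count summed over 18 libraries plus 1; colours give where the stretch lies, and the highest counts, up to 71598, belong to copies with over 70 nt.

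The first set of comparisons asked whether 5S RNA changed with the siRNA against SSB. In whole cells the chr1 cluster held 10964, 8282 and 6832 CPM (counts scaled to library size with TMM factors) in control and 9568, 6141 and 8602 in siSSB. The groups overlapped, and the log2 fold change of the cluster total was -0.10 ± 0.42 (SE, n = 3 per group). The copies elsewhere held 1331, 722 and 641 CPM in control and 643, 617 and 786 in siSSB, a change of -0.40 ± 0.38, which was -0.00 without control total replicate 1. That library stood apart in the leading copies, since the FAM234B copy held 10934 counts in it, against 4807 and 4202 in the other control total libraries and 3403, 3846 and 5993 in siSSB total. The log2 fold change of this copy was -0.75 ± 0.44 with an adjusted p of 0.44 in edgeR. None of the 113 members tested passed an adjusted p of 0.05 in edgeR's quasi-likelihood test, against 1.34% of all features, 4 members had an unadjusted p under 0.05 (all lower, against 16.6% of all features), and DESeq2 called 1 (against 2.33%). That member was RNA5SP490, in an intron of TCP10L. Its counts were 70, 54 and 68 in control and 42, 18 and 24 in siSSB whole cells, and it had an adjusted p of 0.092 in edgeR. The sign of the cluster change rested on scaling: it was 0.45 with column sums or small RNA sums and 0.61 with snoRNA sums. Relative to the median of all features it lay between -0.11 and -0.06, a narrow range that follows from the method, since a scaling moves all features nearly alike. As a share of the counts in features of at most 500 nt, 5S members made up 11.0%, 12.04% and 10.9% in control total and 16.1%, 16.8% and 12.9% in siSSB total, without overlap. The cluster change was 0.17 without siSSB total replicate 2 and 0.10 without control total replicate 1.

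In the nuclear fraction the cluster was lower in siSSB than in control in all 3 libraries on the TMM scale. It held 2460, 2990 and 2288 CPM in control and 2050, 1539 and 1349 in siSSB, and the groups did not overlap. The log2 fold change was -0.65 ± 0.20 (SE, n = 3 per group), and for the copies elsewhere -0.51 ± 0.24, with 199, 304 and 229 CPM in control and 153, 209 and 152 in siSSB, where the groups overlapped. None of the 78 members tested passed the adjusted threshold in edgeR, against 0.378% of all features, and DESeq2 also called 0 (against 0.538%). At an unadjusted p under 0.05, 33 members were lower and 0 higher, against 14% of all features in either direction, but 17 of the 33 were the cluster genes, which share reads. Their adjusted p in edgeR was 0.25 to 0.35. With column sums the cluster change was -0.29 and the groups overlapped. Relative to the median of all features the change lay between -0.73 and -0.72 under the 6 scalings. As in total, that narrow range follows from the method, and without the count filter the value was -0.82.

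In the cytoplasmic fraction the cluster held 12009, 14534 and 16353 CPM in control and 17452, 13576 and 10862 in siSSB. The siSSB values spanned those of the controls, and the log2 fold change was -0.03 ± 0.28 (SE, n = 3 per group). The copies elsewhere held 911, 844 and 1056 CPM in control and 982, 1405 and 884 in siSSB, a value of 0.22 ± 0.27 (-0.02 without siSSB cyto replicate 2). None of the 109 members tested was called by edgeR, against 0.291% of all features, 6 had an unadjusted p under 0.05 (2 higher and 4 lower, against 6.66%), and DESeq2 called 1 (against 0.83%). It was again RNA5SP490, with 86, 53 and 193 counts in control cyto and 46, 32 and 32 in siSSB cyto libraries, a log2 fold change of -1.57 ± 0.32 and an adjusted p of 0.088 in edgeR. Its control and siSSB libraries did not overlap in total or in cyto. Since it is described here for its DESeq2 calls in these same libraries, the lack of overlap adds no support. In nuc it held 2 to 9 counts. RNA5SP490 shares at most 16 nt with the cluster genes.

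The difference between the nuclear and the cytoplasmic effect of siSSB was tested in the 12 fraction libraries. It was -0.74 ± 0.39 for the cluster total and -0.88 ± 0.40 for the copies elsewhere (log2, SE). Of 136 members tested, edgeR called 0, against 0.0133% of all features, and DESeq2 called 0 (against 0.008%). In edgeR 28 had an unadjusted p under 0.05 (1 higher and 27 lower, against 4.9% of all features), all of them copies elsewhere. The nuclear and the cytoplasmic values are thus not shown to differ. Among other polymerase III RNAs, 14 rows were listed, and 12 were tested for siSSB against control in each of total, nuc and cyto. The vault RNAs VTRNA1-1 and VTRNA1-2 were called lower by edgeR in total, nuc and cyto, VTRNA1-3 in total, and no other tested row in any of them.

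The second set compared nuc with cyto. In control libraries the cluster held 9532, 11048 and 8476 CPM in nuc and 2684, 3134 and 3648 in cyto, a log2 fold change of 1.62 ± 0.31 (SE, n = 3 per group), and the copies elsewhere 771, 1122 and 848 against 204, 182 and 235, a change of 2.14 ± 0.30. The groups did not overlap in either. edgeR called 60 of the 120 members tested, against 23.3% of all features, with 55 higher in nuc (9.21% of all features) and 5 lower (14.1%). Of the 55, 17 were the cluster genes, which share reads. Among the copies elsewhere, 43 of 103 were called (41.7%), 38 higher and 5 lower. In siSSB libraries the cluster held 9195, 6152 and 5857 CPM in nuc and 4678, 3881 and 3194 in cyto, a change of 0.85 ± 0.29, and the copies elsewhere changed by 1.24 ± 0.29. There edgeR called 42 of 121 members, against 25.3% of all features, with 31 higher (10.8%) and 11 lower (14.5%). The higher ones included the 16 identical copies, and among the copies elsewhere 26 of 104 were called (25%), 15 higher and 11 lower. RNA5S7 was called in 2 of the 6 fits that left out a library. Without siSSB cyto replicate 1, 2 or 3, edgeR called 25 of 127, 26 of 127 and 23 of 125 members. Of all features it called 5545 of 29155, 6339 of 31424 and 6147 of 31668, so the shares were close. Without siSSB nuc replicate 1, 2 or 3 it called 21, 35 and 38 of 111 members. Of all features it called 5486 of 20616, 5076 of 20609 and 5825 of 20616, and without replicate 1 the member share was the lower.

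These directions rest on the scaling: in control the cluster change was 1.63 with RLE factors and 1.31 with miRNA sums, but it turned negative with column sums, snoRNA sums or sums of small features, and the same held in siSSB. The share of 5S in the counts of features of at most 500 nt was in fact lower in nuc, at 4.68%, 5.74% and 4.60% in control nuc against 10.9%, 13.9% and 12.3% in control cyto, and at 4.42%, 4.56% and 2.95% in siSSB nuc against 17.3%, 13.99% and 11.5% in siSSB cyto. Scaled to column sums, 118 of the 120 members were called lower in control nuc and 0 higher, against 96.3% of all features called lower, and the cluster change was -2.54, while the median over all features moved from -0.27 to -4.33. Relative to that median, the cluster stood at 1.76 to 1.90 in control and at 0.93 to 1.05 in siSSB under all 6 scalings. A scaling moves all features by nearly the same amount, so these narrow ranges follow from the method and test nothing. The median depends on which features are tested, and without the count filter the values were 2.35 in control and 1.41 in siSSB. 5S RNA was thus a smaller share of small RNA counts in nuc than in cyto, yet above the typical feature.

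**Figure D3:**
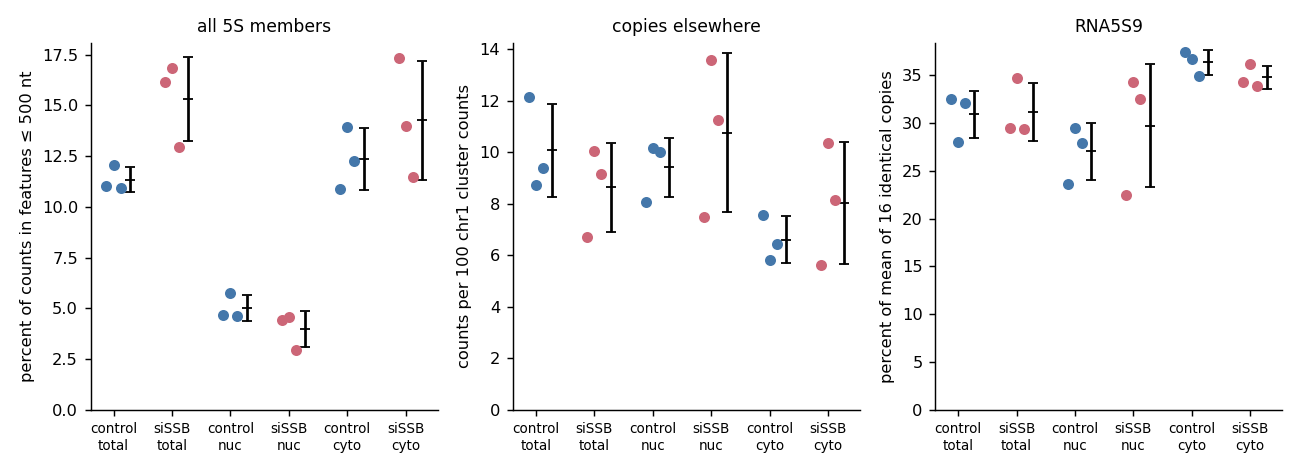
5S members in each library. Points are libraries (blue control, red siSSB), black bars mean ± SD (n = 3), and the panels show all 5S members as a percent of counts in features of at most 500 nt, counts of copies elsewhere per 100 cluster counts, and RNA5S9 as a percent of the mean of the 16 identical genes; nuc libraries have the lowest 5S shares, 2.95 to 5.74%.

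A ratio within a library needs no scaling. Copies elsewhere held 8.09, 10.2 and 10.0 counts per 100 cluster counts in control nuc and 7.58, 5.80 and 6.46 in control cyto. These groups did not overlap, and the ratio was 1.42-fold higher in nuc (log2 0.51 ± 0.15, SE, exact two-sided permutation p = 0.1, the smallest that 3 against 3 allows, 0.5 after Benjamini-Hochberg adjustment over 5 comparisons). Without the FAM234B copy, which holds the most counts elsewhere, the groups overlapped and the difference was 0.36 ± 0.15. In siSSB the ratio was 7.48, 13.6 and 11.3 in nuc and 5.63, 10.4 and 8.14 in cyto, with overlap (exact permutation p = 0.3, adjusted 0.6). For siSSB against control, the exact permutation p was 0.5 in total, 0.6 in nuc and 0.5 in cyto, each 0.6 after adjustment, and the groups overlapped in each.

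The copies elsewhere did not move together. Those with a stretch of at least 20 nt were divided by the place of that stretch: 26 began within the first 10 bases of 5S, 7 ended at base 110 or later, and 139 lay between. This division was made after the values were seen and carries no test. The 26 copies of the 5′ end held 6.22, 8.30 and 7.85 counts per 100 cluster counts in control nuc and 3.54, 2.75 and 2.997 in control cyto. In siSSB they held 5.70, 11.1 and 8.48 in nuc and 2.77, 5.25 and 3.69 in cyto, again without overlap. The 7 copies of the 3′ end went the other way, with 0.243, 0.279 and 0.225 in control nuc against 0.823, 0.621 and 0.529 in control cyto. In siSSB the 3′ end copies held 0.233, 0.153 and 0.294 in nuc against 0.545, 0.590 and 0.738 in cyto. Relative to the cluster, 5′ end copies were thus 2.41-fold and 2.15-fold higher in nuc in control and siSSB, and 3′ end copies stood at 0.384 and 0.353 times their cyto level. Inner copies stood at 0.610 and 0.613 times, with overlap in siSSB. Control total replicate 1 held 8.64 per 100 for the 5′ end copies, against 4.92 and 4.81 in its replicates.

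**Figure D4:**
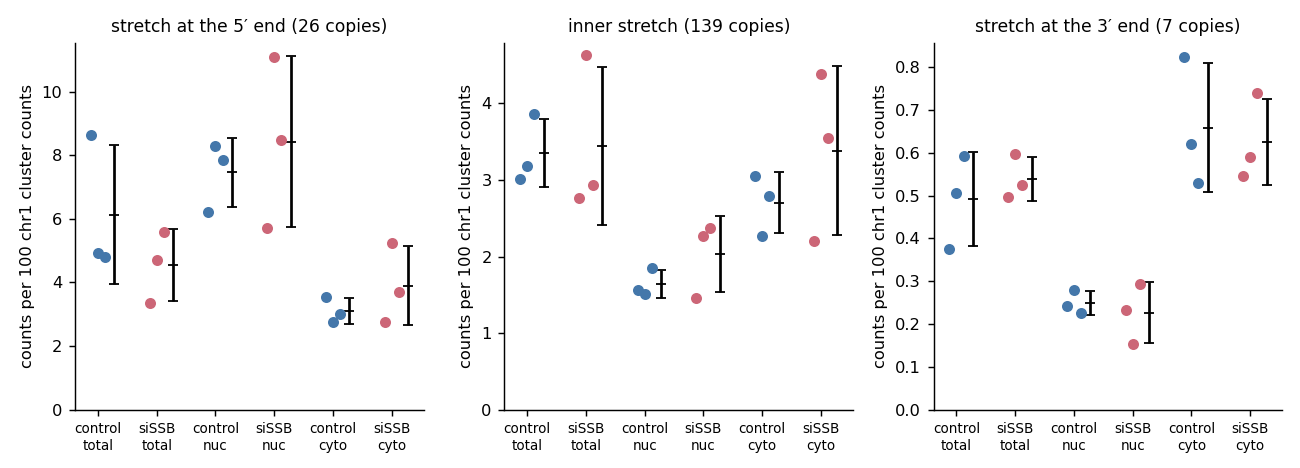
Copies elsewhere by the place of their shared stretch, per 100 counts of the chr1 cluster. Points are libraries (blue control, red siSSB), black bars mean ± SD (n = 3); copies of the 5′ end are highest in nuc (5.70 to 11.1) and copies of the 3′ end lowest in nuc (0.153 to 0.294).

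The single copies named next were picked for high counts or for large changes between the fractions. Together they hold much of the counts of the 5′ end copies, so they illustrate the split and add no support for it. RNA5SP141, which shares bases 1 to 62, held 2606, 3731 and 2054 counts in control nuc and 781, 606 and 1071 in control cyto, or 12.3 to 17.7% of the mean of the identical copies in nuc and 2.96 to 4.33% in cyto. It had the largest rise among the named copies in control, with a log2 fold change of 3.76 ± 0.33 and an adjusted p of 4.5e-11 in edgeR. RNA5SP86, a copy on chromosome 2 that shares bases 3 to 25, followed at 3.62 ± 0.37, and the FAM234B copy, RNA5SP442 in an intron of HAP1 and RNA5SP370 rose by 3.32, 3.32 and 3.28. With snoRNA sums all 120 tested members, these 5 included, were called lower in nuc, as were 97.5% of all features. In siSSB, RNA5SP86 rose by 2.71 ± 0.38, RNA5SP141 by 2.59 ± 0.32, RNA5SP145 by 2.28, RNA5SP370 by 2.27 and the FAM234B copy by 2.24. The FAM234B copy, RNA5SP370 and RNA5SP145 held similar counts in each library, such as 4479, 4271 and 4354 in control nuc replicate 1. Their rises can therefore not be taken as separate measurements.

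Copies that were lower in nuc on the TMM scale held few counts. RNA5SP62, with a stretch of 17 nt, held 0, 1 and 2 counts in control nuc and 29, 22 and 32 in control cyto, a log2 fold change of -2.76 ± 0.73 with an adjusted p of 0.0045 in edgeR. RNA5SP490 fell by 1.85, RNA5SP376 by 1.26, RNA5SP388 in an intron of NRXN3 by 1.23 and RNA5SP77 by 1.05. RNA5SP77 is among the copies of highest identity (90.8%) but shares a stretch of 21 nt. That stretch covers bases 7 to 27, so RNA5SP77 is a 5′ end copy that went against the others of its class. Its 22, 26 and 16 counts in control nuc lay below the 129, 137 and 270 in control cyto. In siSSB, RNA5SP376, RNA5SP238 in an intron of FOXP2, RNA5SP77 and RNA5SP221 in an intron of ADAT2 fell by 1.97, 1.89, 1.83 and 1.75. RNA5SP221 had an adjusted p of 0.040 in edgeR and 1 to 4 counts per siSSB nuc library, and it was called in 2 of the 6 fits that left out a library. RNA5SP238, with 1 to 3 counts per siSSB nuc library, was called in 3 of 6, and RNA5SP388 in control in 1 of 6.

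Not each copy of the 5′ part behaved alike. RNA5SP429 shares bases 3 to 79 and held 3.16 to 3.65% of the mean of the identical copies in control nuc and 4.21 to 5.03% in control cyto. Relative to that mean this was the reverse of RNA5SP370. In siSSB it held 2.87 to 5.75% in nuc and 4.10 to 6.92% in cyto, with overlap. On the TMM scale RNA5SP429 was nevertheless called higher in control nuc, by 1.22 ± 0.29 with an adjusted p of 0.0015 in edgeR. The 3′ end copies with most counts, RNA5SP357, RNA5SP248, RNA5SP500 and RNA5SP132 (named after their values were seen), held 0.59 to 1.46% of that mean in control nuc and 1.76 to 4.11% in control cyto. On the TMM scale 14 of 19 tested 5′ end copies were called higher in control nuc and 1 lower, 22 of 64 inner copies higher and 2 lower, and 0 of 6 copies of the 3′ end in either direction, against 9.21% of all features higher and 14.1% lower. In siSSB, 10 of 21 5′ end copies were higher and 2 lower, and 0 of 6 3′ end copies were called. Inner copies were mixed there, with 5 of 66 higher and 7 lower, against 10.8% and 14.5% of all features. Copies that share a stretch may hold the same reads, so these calls are not independent.

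**Figure D5:**
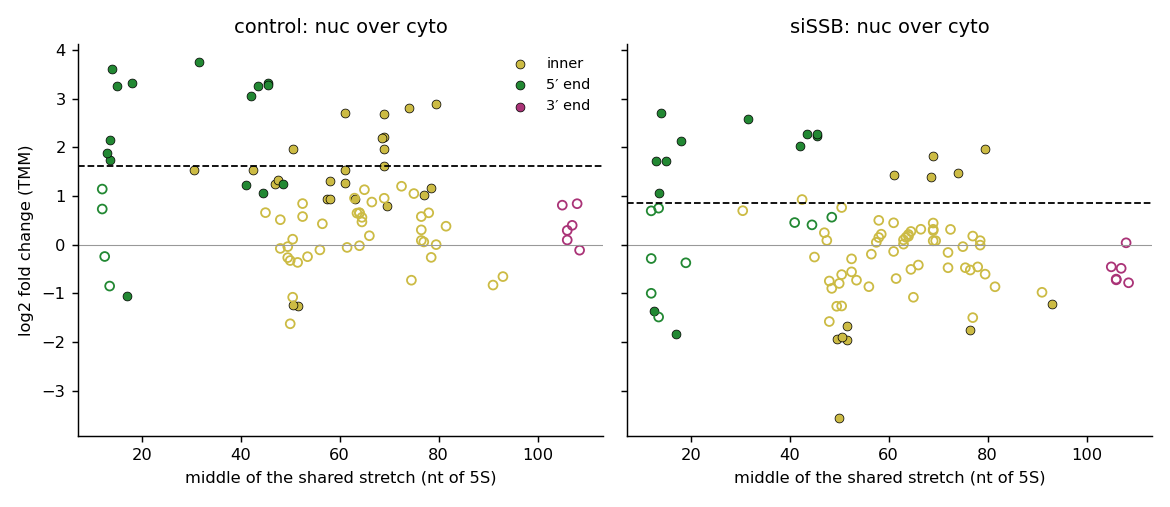
Nuclear over cytoplasmic log2 fold change (TMM) of copies elsewhere with a shared stretch of at least 20 nt, against the middle of that stretch in nt of 5S. Filled points passed an adjusted p of 0.05 in edgeR, open points did not, and the dashed line is the chr1 cluster total, 1.62 in control and 0.85 in siSSB; 3′ end copies all lie below the line.

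Other rRNA rows of at most 500 nt gave a background for the family. Of 147 such rows, 64 were tested between control nuc and cyto. Of these, 12 were called higher and 23 lower in edgeR, against 9.21% and 14.1% of all features. In siSSB, 5 of 66 were higher and 28 lower, against 10.8% and 14.5% of all features. Among the other polymerase III RNAs, 4 of 13 tested were higher and 7 lower in control and again in siSSB, against the same shares of all features.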

How the data were processed

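The authors deposited 1 table of raw read counts for noncoding RNA features, not normalized. Bowtie2, bedtools and hg38 are named in the submitters' processing notes, and the treatment of multi-mapping reads is not given in the sources used here. Features overlap, and 114 copies elsewhere lay within a feature over 500 nt that may hold the same reads. Groups and replicate numbers came from the sample titles. Members and lists were chosen with earlier results of these data known. All features passing filterByExpr were fitted in edgeR 4.0.16 (R 4.3.3, TMM, quasi-likelihood test, Benjamini-Hochberg over all features, 6 libraries per pair of groups), and DESeq2 1.42.0 was an alternative. Family totals were added to the same fit and carry no p. Sequences were read from hg38, annotation from GENCODE v44, and identity from a global alignment in Biopython 1.88. The copies named were the highest and lowest cluster members, the 6 highest elsewhere, the 5 closest in sequence, and up to 5 rising and 5 falling per comparison with an adjusted p under 0.05 and a mean of at least 10 counts. Some sequences and 1 copy that this rule names are not reported here. The fit was tested on simulated counts. Values after ± are standard errors of the fit or of the difference in group means, and the floor of 3 counts covers counting error only.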

Additional observations from a re-analysis of the deposited data

How the results depend on the processing

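The log2 ratios of copies elsewhere to the cluster moved by less than the spread between replicates under each alternative, without the highest copy, with rows of identical counts taken once, and without each library. Scaling decided the direction of the nuclear to cytoplasmic comparison. With column sums, snoRNA sums and sums of small features the cluster total was -2.54, -4.35 and -1.34 in control and -2.999, -5.05 and -1.88 in siSSB (log2), and the copies elsewhere -2.01, -3.81 and -0.81 in control and -2.53, -4.55 and -1.43 in siSSB, with 118, 120 and 104 members called in control (98.7%, 98.3% and 97.8% of all features) and 121, 121 and 112 in siSSB (98.5%, 98.3% and 97.3%). With miRNA sums the control cluster total was 1.31 and 19 siSSB members were called (19.5% of all features). Without the count filter the cluster totals were 1.14 and 0.48, and 36 siSSB members were called (14 higher, 22 lower, 5.35% of all features). In siSSB, 34 were called with all 18 libraries fitted together (15 higher, 19 lower, 18.1%), 20 by DESeq2 (20.1%) and 17 at an adjusted p under 0.01 (18%).

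For siSSB against control in total, the cluster total was 0.45, 0.61, -0.61 and 0.45 with column sums, snoRNA, miRNA and small feature sums, and members called numbered 7 of 113 with miRNA sums (16.5% of all features), 3 of 249 without the filter (0.546%) and 1 by DESeq2 (2.33%). In nuc it was -0.29, -0.35 and -0.35 with column, snoRNA and small feature sums. In cyto it was 0.36 with snoRNA sums, and 1 member was called with miRNA sums, without the filter, with all 18 libraries and by DESeq2 (0.624%, 0.196%, 0.391% and 0.83% of all features). The difference between fractions was -0.46 with column sums and -0.33 with miRNA sums. Leaving out each library gave 0 to 2 members in total (2 without control total replicate 3, 1 without siSSB total replicate 1), 50 to 61 between control fractions and 21 to 38 between siSSB fractions. Of all features, these fits called 69 to 303 of 14405 to 16737 in total. Between control fractions they called 5043 to 6103 of 26136 to 30648, and between siSSB fractions 5076 to 6339 of 20609 to 31668. The sign of the cluster total changed in total (-0.27 to 0.17) and in cyto (-0.23 to 0.13), where no change was called.

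Same-numbered libraries did not deviate together (correlations of -0.42 to 0.13), and the main fits did not pair them. Libraries of unequal number correlated at up to 0.43. With 3 libraries per group these correlations cannot show whether same-numbered libraries were prepared together. With the replicate number as a block, 1 member was called in total (1.43% of all features), 61 between control fractions (22.2%) and 30 between siSSB fractions (15 higher, 15 lower, 24.4%).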
